A study of Rattus norvegicus with 4 samples.

Results

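The genes described here fold proteins in the endoplasmic reticulum (ER), or respond when folding there falls behind. They are 35 genes taken from a list of names, with no threshold on a measured value. Each was read from the non-control probes of the array whose gene name was a member's symbol, or an older symbol of a member on the same chromosome. Of 41012 probes on the array 40 qualified, covering 32 of the 35 genes, and 22028 gene names were tested in all. Xbp1, Sdf2l1 and Derl2 had no probe under their names and were not measured. All 40 probes were well above background on all 4 arrays and 0 were saturated, so all 40 were among the 25915 probes tested.

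The cells were deposited as peritubular myoid cells, the flat contractile cells that surround the seminiferous tubule of the testis and secrete part of its matrix. They were isolated from male rats aged 40 days and cultured for 4 days in a DMEM and Ham F-12 mixture supplied with growth factors. The testosterone group had 2 arrays of cells given 1e-07 M testosterone in pulses, and the control group had 2 arrays of cells labelled as control. The labels repeat the treatment text on the control samples and do not say what those cells were given, nor the strain, the number of animals or whether the replicates were separate cultures. The p-values thus rest on the scatter of these 4 arrays alone, and how much of it is technical is unknown.

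A cell that secretes matrix passes its collagens and other secreted proteins through the ER, where chaperones hold unfolded chains, lectins retain glycoproteins and isomerases form disulfide bonds. When unfolded proteins build up, the sensors ATF6, IRE1 (Ern1) and PERK (Eif2ak3) start the unfolded protein response. ATF6 and the spliced form of XBP1 raise chaperone and degradation genes, while PERK slows translation and favours ATF4, which raises amino acid and stress genes. Microarray probes read the amount of RNA and not the splicing of Xbp1 or the phosphorylation of the sensors.

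The promoters of several members share a short sequence that is rare elsewhere. The search used RefSeq promoter windows of assembly GRCr8, from 250 bases before to 50 bases after the start. Of the 35 members 28 had such a window and 7 had none. The ER stress response element was searched for on both strands, as CCAAT, then 9 bases of any kind, then CCACG. NF-Y is known to bind its first part, and ATF6 or XBP1 its last. It was found in 7 of 28 member promoters (25%) and in 22 of 33465 promoters of all genes (0.0657%). The matches are given here to show how the spacer varies, each written in the direction of the element, with the fixed bases in capitals. The distance counts from the start to the first base of the match along the gene.
Hspa5 43 bases before the start: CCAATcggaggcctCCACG
Hsp90b1 176 bases before the start: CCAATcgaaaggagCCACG
Hsp90b1 72 bases before the start: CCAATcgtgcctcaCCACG
Dnajc3 133 bases before the start: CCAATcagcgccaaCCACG
Calr 232 bases before the start: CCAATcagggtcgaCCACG
Canx 230 bases before the start: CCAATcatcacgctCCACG
Xbp1 65 bases before the start: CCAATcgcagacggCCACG
Creld2 145 bases before the start: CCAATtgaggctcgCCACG

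The related element II, ATTGG, then 1 base of any kind, then CCACG, occurred in 3 member promoters (10.7%), those of Hyou1, Dnajb11 and Herpud1, and in 0.0508% of all promoters. The unfolded protein response element, TGACGTGG, occurred in 1 member promoter, that of Hyou1, and in 0.595% of all. Its match in Hyou1 overlapped one of the matches to element II. The C/EBP-ATF response element, TGATGNAA, through which ATF4 acts, occurred in 2 member promoters (7.14%), those of Trib3 and Herpud1, and in 3.98% of all. Many of these genes are known as targets of the unfolded protein response, so the shares describe the choice of genes as well as their promoters. A match is a description of letters and not a measured binding site.

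The windows of 4 chaperone and degradation genes are shown whole, since these genes carry the classic elements and head the values below. They run 5′ to 3′ along the gene, and the capitals mark matches to the first 3 elements on either strand.
Hspa5, chr3:38452766-38453065, plus strand: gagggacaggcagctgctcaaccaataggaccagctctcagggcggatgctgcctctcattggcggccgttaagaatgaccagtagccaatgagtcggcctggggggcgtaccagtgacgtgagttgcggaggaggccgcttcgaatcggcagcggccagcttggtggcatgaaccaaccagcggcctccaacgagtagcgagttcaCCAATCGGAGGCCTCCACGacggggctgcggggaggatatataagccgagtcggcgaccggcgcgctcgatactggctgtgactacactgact
Hsp90b1, chr7:23012244-23012543, minus strand: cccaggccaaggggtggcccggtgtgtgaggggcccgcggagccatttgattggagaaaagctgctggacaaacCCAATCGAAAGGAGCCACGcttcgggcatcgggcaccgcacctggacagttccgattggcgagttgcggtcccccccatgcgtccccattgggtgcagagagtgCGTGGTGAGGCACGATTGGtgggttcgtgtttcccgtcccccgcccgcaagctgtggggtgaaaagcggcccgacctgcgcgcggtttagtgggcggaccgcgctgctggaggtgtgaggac
Hyou1, chr8:53602632-53602931, plus strand: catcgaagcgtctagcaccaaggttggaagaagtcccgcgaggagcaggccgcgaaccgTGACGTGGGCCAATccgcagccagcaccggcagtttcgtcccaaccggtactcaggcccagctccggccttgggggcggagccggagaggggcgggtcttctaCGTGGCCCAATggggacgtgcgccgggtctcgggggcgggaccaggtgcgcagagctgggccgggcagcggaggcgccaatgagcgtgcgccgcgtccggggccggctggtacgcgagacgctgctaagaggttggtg
Herpud1, chr19:10614658-10614957, minus strand: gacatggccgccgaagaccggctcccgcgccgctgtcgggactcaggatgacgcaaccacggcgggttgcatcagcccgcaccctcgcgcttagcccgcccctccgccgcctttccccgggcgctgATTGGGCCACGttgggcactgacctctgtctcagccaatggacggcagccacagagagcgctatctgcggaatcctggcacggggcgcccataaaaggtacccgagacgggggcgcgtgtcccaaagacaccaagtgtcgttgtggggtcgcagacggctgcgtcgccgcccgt
Hsp90b1 held the ER stress response element in both directions, and Hyou1 held 2 copies of element II.

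Between 63.5% and 68.2% of non-control spots were well above background on an array. Control replicate 1 had 63 spots that read at least 4 on the log2 scale below all other arrays, all 63 in columns 57 to 85 of the array, while the other arrays had 0 such spots. Of the 32 member genes 13 were read in those columns, with a median difference of -0.07, against -0.07 for the 19 read elsewhere. No member lay within 5 rows and columns of such a spot. Drops of less than 4, such as those of Ganab, Mogs and Os9 below, were not counted as such spots. Control replicate 1 was the lowest array for 1 of the 13 members and 3 of the 19. Of the myoid markers Myl9, Des, Actg2 and Tagln were well above background on all 4 arrays, and Cnn1 was not on any. Acta2 and Myh11 had no probe under their names. Tagln was dim, at -4.63 and -2.84 with testosterone and -4.47 and -2.75 in control. The 5 measured myoid genes summed to log2 levels of 5.83 and 6.05 with testosterone and 6.08 and 6.25 in control. Probes differ in how well they bind, so such sums are comparable between arrays and not between cell types. Markers of other cells were also present, 5 of 6 Leydig cell genes and all 4 measured macrophage genes being well above background on every array. Their summed log2 levels were 6.56 and 6.92 with testosterone and 6.66 and 6.72 in control for the Leydig cell genes. For the macrophage genes the summed levels were 6.98 and 6.53 with testosterone and 7.19 and 6.59 in control. Of the other lists, 4 of 7 Sertoli cell, 3 of 5 measured germ cell and 2 of 4 endothelial markers were well above background on every array. The part of these cells in the results was not tested, and in such a bulk sample fewer cells of a type and less RNA per cell cannot be told apart.

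Levels are log2 processed signals relative to the 75th percentile of each array, given for replicate 1 and then replicate 2. Probes differ in how well they bind, so a level is comparable between arrays and not between genes. Where a gene had several probes, its brightest is given. With that scale 27 of the 32 genes (84.4%) lay above the 75th percentile on all 4 arrays, as did 37.5% of all gene names tested when each was read from its brightest probe. The other 5 lay below it on all 4, namely Dnajb11, Canx, Pdia4, Sel1l and Eif2ak3.

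No change of a member with testosterone passed the test. Limma called 0 of the 32 genes at an adjusted p under 0.05, where 0% of all 25915 probes tested were called. At an unadjusted p under 0.05 there were also 0 members, against 208 probes (0.803%). Without control replicate 2, some probes but no members were called. That fit left control replicate 1 alone in its group, and the part of its low spots in the calls was not tested. The member differences, testosterone minus control, were positive for 11 genes (34.4%), where 47.7% of all probes were positive. They were negative for 21 (65.6%), where 52.3% of all probes were negative. Their median was -0.07 against -0.01 for all probes, and they ran from -0.39 to 0.15.

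The intervals rest on 2 arrays a group, and limma draws the variance of each probe towards that of all probes tested. For 30 of the 32 genes the 95% interval lay within a 2-fold change either way, which held for 71.7% of all probes. The exceptions were Eif2ak3 and Ppp1r15a. Both testosterone arrays lay below both control arrays for 4 members (12.5%), Hspa5, Hyou1, Pdia4 and Syvn1, where 8.93% of all probes did so. Both lay above for 0 members, where 6.12% of all probes did so. Of 3 arrays, 1 against 2, more genes part. With testosterone replicate 1 left out, the groups did not overlap for 22 members (68.8%), where 69.3% of all probes did not. Without control replicate 1 the count was 18 (56.2%, against 45.1% of all probes). It was 16 (50%) without testosterone replicate 2 and 16 without control replicate 2, against 59.1% and 56.5% of all probes.

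**Figure D1:**
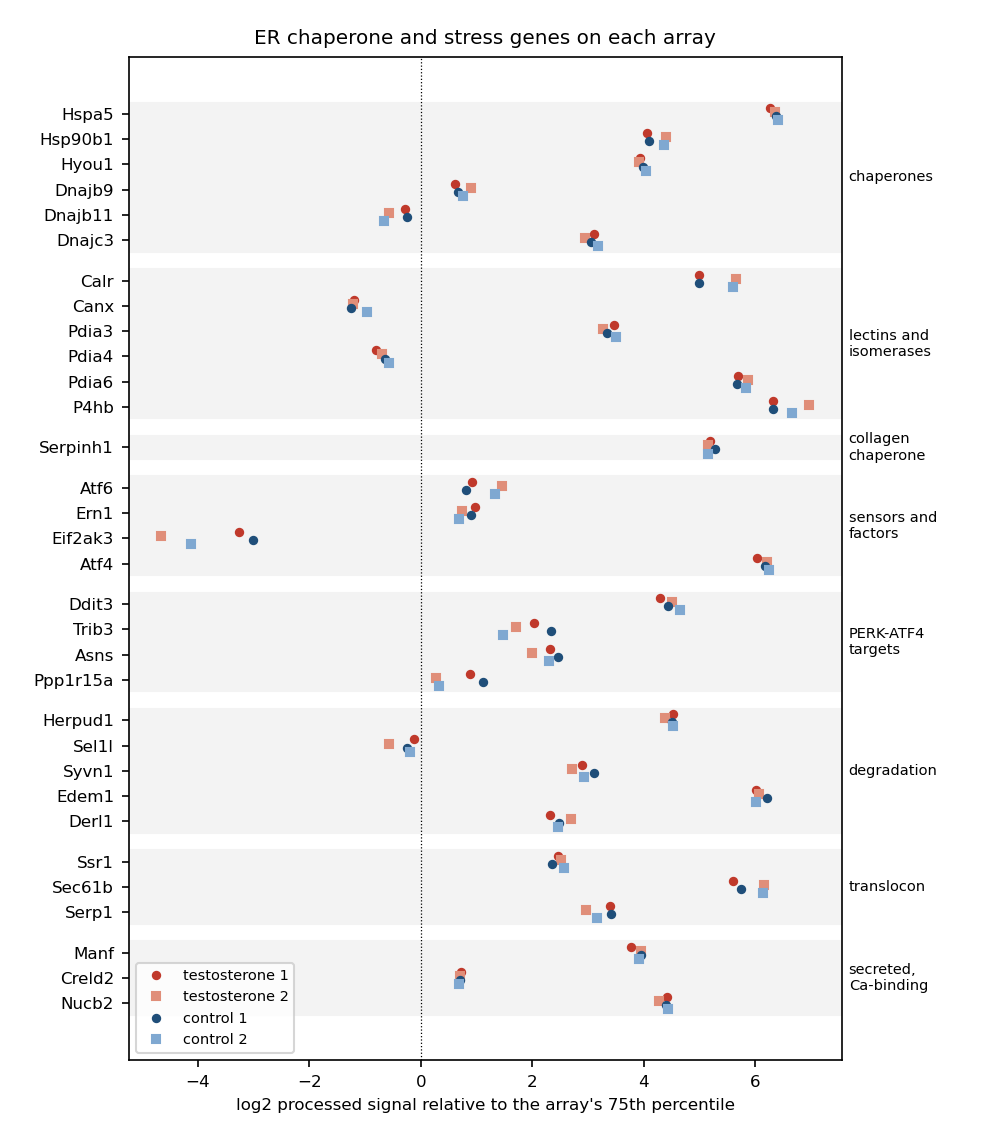
Level of each of the 32 measured genes on every array (x axis, log2 processed signal relative to the array's 75th percentile), with genes grouped by role down the page. Red marks are testosterone arrays and blue marks control arrays, circles replicate 1 and squares replicate 2. For most genes the 4 marks lie close together, and Eif2ak3 is the widest, with a range of 1.64.

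Among the chaperones, Hspa5 encodes BiP, the abundant Hsp70 of the ER lumen that also holds the stress sensors inactive. It stood at 6.26 and 6.35 with testosterone, against 6.38 and 6.40 in control (chromosome 3, 13787739 to 13787798, rn4). Both testosterone arrays were the lower pair, and the difference of -0.08 (95% interval -0.57 to 0.41) did not pass the test. Hsp90b1 encodes GRP94, the Hsp90 of the ER, which folds integrins and Toll-like receptors. Its level was 4.06 and 4.41 with testosterone, against 4.10 and 4.36 in control (chromosome 7, 23334474 to 23334623). The groups overlapped, and the difference was 0.00 (-0.61 to 0.62).

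Hyou1, a large Hsp70-related protein that exchanges nucleotide on BiP, stood at 3.93 and 3.91 with testosterone, against 3.98 and 4.04 in control (chromosome 8, 47358785 to 47358844; difference -0.09, -0.58 to 0.39). The testosterone arrays were again the lower pair, on its second probe too. Dnajb9, a J-domain protein that hands misfolded chains to BiP, stood at 0.62 and 0.90 with testosterone, against 0.66 and 0.75 in control (chromosome 6, 63583604 to 63583663; difference 0.05, -0.50 to 0.60). Here the testosterone arrays were the highest and the lowest of the 4. Dnajb11 and Dnajc3, further J-domain partners of BiP, differed by 0.03 (-0.62 to 0.67) and -0.08 (-0.59 to 0.44), with overlapping groups.

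Calr and Canx encode calreticulin and calnexin, the lectins that retain newly made glycoproteins for folding. Calr stood at 4.99 and 5.66 with testosterone, against 5.0 and 5.60 in control (chromosome 19, 24967507 to 24967566). Both replicate 1 arrays were low and both replicate 2 arrays high, whatever the treatment, and the difference was 0.02 (-0.91 to 0.96). Canx stood at -1.20 and -1.21 with testosterone, against -1.26 and -0.96 in control (difference -0.10, -0.65 to 0.45), control replicate 2 being the array that stood above the rest.

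The disulfide isomerases exchange the bonds between cysteines. Pdia4, also known as ERp72, stood at -0.81 and -0.70 with testosterone, against -0.64 and -0.58 in control (chromosome 4, 75929978 to 75931486). The testosterone arrays were the lower pair, and the difference was -0.15 (-0.64 to 0.35). P4hb, which serves both as the classic isomerase and as the beta subunit of collagen prolyl 4-hydroxylase, had the largest positive difference of the members on this scale. Its level was 6.31 and 6.97 with testosterone, against 6.32 and 6.66 in control (chromosome 10, 109950731 to 109950790; difference 0.15, -0.67 to 0.96). The replicate 1 arrays differed by -0.01 and the replicate 2 arrays by 0.31, so the difference came from replicate 2. It was 0.07 under normexp background correction with quantile normalization, below Ern1, Atf6, Pdia6, Dnajb9 and Calr. With 1 array left out, it was -0.02 without control replicate 1 and -0.18 without testosterone replicate 2.

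Pdia3, the partner of calnexin and calreticulin, and Pdia6 differed by -0.05 (-0.59 to 0.48) and 0.02 (-0.50 to 0.55), both with overlapping groups.

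Serpinh1 encodes HSP47, a chaperone of the ER that binds procollagen. It stood at 5.20 and 5.16 with testosterone, against 5.28 and 5.16 in control (chromosome 1, 156666914 to 156666946). The 4 arrays spanned a range of only 0.13, and the difference was -0.04 (-0.54 to 0.45). A change of 2-fold in this collagen chaperone lay outside the interval.

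Of the sensors, Atf6 encodes a membrane factor that is cut in the Golgi to release its active part. It stood at 0.92 and 1.45 with testosterone, against 0.81 and 1.34 in control (chromosome 13, 86673253 to 86687904; difference 0.11, -0.71 to 0.93). Each testosterone array was above the control of the same number, by 0.10 and 0.11, but the groups overlapped. Ern1 encodes IRE1, the kinase and nuclease that splices Xbp1 RNA. It stood at 0.97 and 0.73 with testosterone, against 0.90 and 0.69 in control (chromosome 10, 95790831 to 95790890), a difference of 0.05 (-0.51 to 0.61) with overlapping groups. Under normexp with quantile normalization the difference of Ern1 was 0.31, the largest of the members in that setting, and it was not called.

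Eif2ak3, which encodes PERK, the kinase that slows translation, had the largest difference and the widest interval of the members on this scale. Its level was -3.26 and -4.66 with testosterone, against -3.02 and -4.13 in control (chromosome 4, 104075118 to 104077133). Replicate 2 minus replicate 1 was -1.40 with testosterone and -1.11 in control, so the groups overlapped. The difference was -0.39 (-2.05 to 1.27), and a 2-fold change either way lay inside that interval. It was -0.12 under normexp with quantile normalization, 0.16 without control replicate 1 and 0.31 without testosterone replicate 2.

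Atf4 encodes the transcription factor whose translation PERK favours. It stood at 6.03 and 6.22 with testosterone, against 6.17 and 6.25 in control (chromosome 7, 118538840 to 118538899), a difference of -0.09 (-0.60 to 0.43). The groups overlapped. Ddit3 encodes CHOP, a factor tied to cell death under lasting ER stress. It stood at 4.30 and 4.51 with testosterone, against 4.43 and 4.64 in control (chromosome 7, 67251675 to 67252036). Each testosterone array lay below the control of the same number, by similar amounts of -0.13 and -0.14, but the groups overlapped and the difference was -0.14 (-0.68 to 0.41).

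The 4 targets of the PERK-ATF4 arm had negative differences on this scale, with a median of -0.14, and 0 passed the test. Not every setting kept those signs. Trib3 was at 0.01 under normexp with quantile normalization, and it was at 0.39 and Ppp1r15a at 0.25 without control replicate 1. Without testosterone replicate 2 they were at 0.12 and 0.16. Asns, asparagine synthetase, had the most negative value of them, at 2.31 and 1.99 with testosterone, against 2.46 and 2.30 in control (chromosome 4, 32759136 to 32759195). The groups overlapped narrowly, and the difference was -0.23 (-0.81 to 0.35). Trib3, a pseudokinase that restrains ATF4 and AKT signalling, stood at 2.02 and 1.70 with testosterone, against 2.34 and 1.47 in control (chromosome 3, 142664064 to 142664123; difference -0.04, -1.0 to 0.91). Its same-numbered differences had opposite signs, -0.32 and 0.23. Ppp1r15a encodes GADD34, which reverses the block of translation by PERK. It stood at 0.87 and 0.26 with testosterone, against 1.11 and 0.32 in control (chromosome 1, 95994395 to 95994897; difference -0.15, -1.16 to 0.87), and the replicate 1 arrays were the higher pair.

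The degradation genes carry misfolded proteins out of the ER to the proteasome. Herpud1, a membrane organiser of the degradation complex that responds strongly to ER stress, stood at 4.52 and 4.38 with testosterone, against 4.50 and 4.53 in control (chromosome 19, 11036709 to 11036768). The groups overlapped, and the difference was -0.07 (-0.56 to 0.43). Edem1, a lectin that selects glycoproteins for disposal, stood at 6.02 and 6.06 with testosterone, against 6.21 and 6.01 in control (chromosome 4, 144382442 to 144382501), a difference of -0.07 (-0.58 to 0.45). Control replicate 1 was the highest of its 4 arrays and control replicate 2 the lowest.

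Syvn1 encodes HRD1, the ubiquitin ligase of the ER membrane. It stood at 2.90 and 2.71 with testosterone, against 3.11 and 2.92 in control (chromosome 1, 208690689 to 208690748). The testosterone arrays were the lower pair by a narrow margin, and the difference was -0.21 (-0.75 to 0.32), with same-numbered differences of -0.21 and -0.22. This probe lay in columns 57 to 85, and on the dimmer Syvn1 probe the groups overlapped. Sel1l, the adaptor of HRD1, differed by -0.12 (-0.74 to 0.50), and Derl1, a channel component of the same complex, by 0.03.

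The translocon carries new chains into the ER. Sec61b, a small subunit of the channel, stood at 5.60 and 6.16 with testosterone, against 5.75 and 6.14 in control (difference -0.07, -0.84 to 0.70). Both replicate 2 arrays were the higher pair. Serp1, which stabilises membrane proteins under stress, showed the opposite order, at 3.39 and 2.96 with testosterone, against 3.42 and 3.17 in control (difference -0.11, -0.77 to 0.54). Ssr1, a subunit of the complex that assists translocation, differed by 0.03 (-0.49 to 0.55), with overlapping groups.

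Among the secreted and calcium-binding members, Manf, a secreted factor that protects cells under ER stress, stood at 3.76 and 3.95 with testosterone, against 3.95 and 3.91 in control (chromosome 8, 112110213 to 112110272; difference -0.07, -0.58 to 0.44). Testosterone replicate 1 was the lowest array, and the other 3 lay close together. Creld2, an ER protein induced by stress, stood at 0.72 and 0.71 with testosterone, against 0.71 and 0.69 in control (chromosome 7, 127125310 to 127125369). Its 4 values spanned only 0.03, and the difference was 0.01 (-0.47 to 0.49). Nucb2, a calcium-binding protein and the precursor of nesfatin, stood at 4.41 and 4.27 with testosterone, against 4.39 and 4.43 in control (chromosome 1, 174630840 to 174630997; difference -0.07, -0.57 to 0.42), with overlapping groups.

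**Figure D2:**
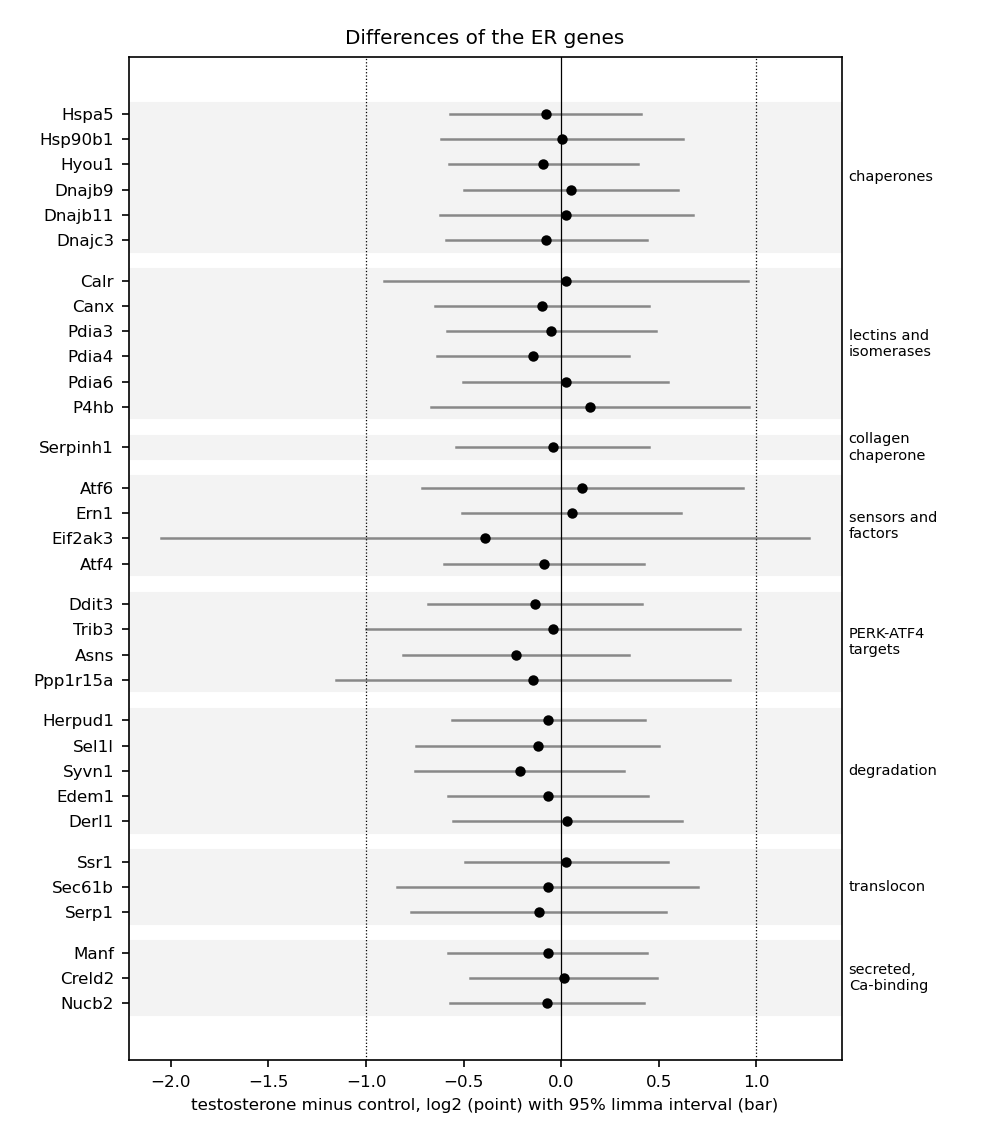
Difference of each gene, testosterone minus control (x axis, log2), with its 95% limma interval, grouped by role; dotted lines mark a 2-fold change. Every interval includes 0, and those of Eif2ak3 and Ppp1r15a pass a dotted line.

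Genes with several probes mostly gave differences of the same sign. Of the 7 such genes, Dnajb9, Herpud1, Hyou1, Manf and Syvn1 had probes of 1 sign, at 0.05 and 0.06, -0.07 and -0.09, -0.09 and -0.16, -0.07 and -0.21, and -0.21 and -0.29. The probes of Hsp90b1 read 0.00 and -0.14. Those of Edem1 read -0.07, -0.00 and 0.15, so no sign can be given for that gene, and the last of these had both testosterone arrays above both controls. The dimmer Manf probe (chromosome 8, 112110375 to 112110434) had both testosterone arrays below both controls, which its brighter probe did not.

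For most members the replicates differed by more than the groups did. The larger of the gaps between replicates, within the testosterone or within the control group, exceeded the difference between the groups for 29 of 32 members (90.6%), close to the 91.5% of all probes tested that had a value on every array. Replicate 2 minus replicate 1 had the same sign with testosterone and in control for 22 members (68.8%), where 71.6% of all probes did so. Both replicate 2 arrays lay above both replicate 1 arrays for 10 members (31.2%, against 36.8% of all probes), among them Calr, P4hb, Atf6 and Sec61b. Both lay below for 9 members (28.1%, against 26.8% of all probes), among them Eif2ak3, Ppp1r15a, Trib3 and Asns.

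The numbers were not equal in their cell markers. The 5 measured germ cell markers summed to log2 levels of -1.02 and 2.53 with testosterone, against -1.26 and 2.56 in control, so that the replicate 2 arrays were high in both groups. The spermatid gene Tnp1 stood at -3.42 and 1.59 with testosterone, against -2.80 and 1.59 in control. Prm1, Tnp2 and Sycp3 also read higher on replicate 2 in both groups. Ddx4, on the same list, went the other way with testosterone, at -2.56 and -3.83. It stood at -7.59 and -3.96 in control. Its probe lay in column 78, among the columns that held the low spots of control replicate 1. The part of such RNA in the replicate differences of the ER genes was not tested.

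Between arrays of the same number, the difference was negative in both numbers for 10 members and positive in both for 4. The sign was thus the same in 14 of 32 members (43.8%), where 44.3% of all probes had the same sign. The median member difference was -0.04 in number 1 and -0.04 in number 2, against -0.05 and 0.03 for all probes.

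**Figure D3:**
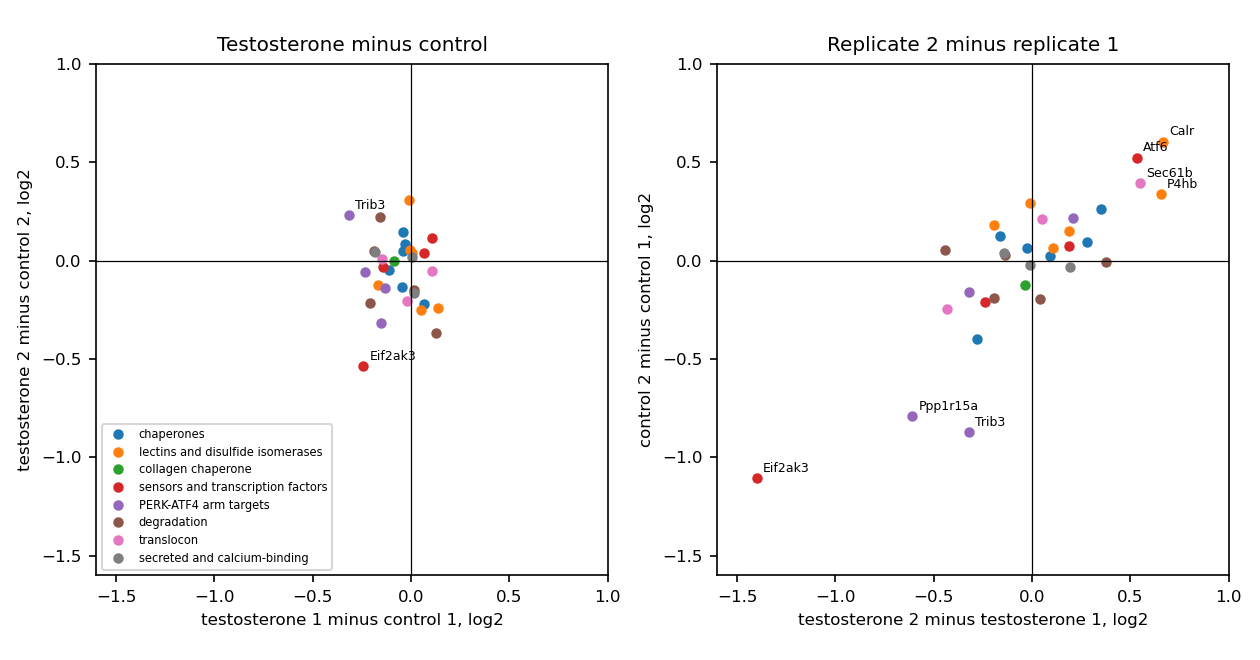
Each point is 1 gene, coloured by role. The left plot sets the testosterone minus control difference of replicate 1 (x axis, log2) against that of replicate 2 (y axis, log2), and the right plot sets replicate 2 minus replicate 1 with testosterone (x axis, log2) against the same in control (y axis, log2). Points on the left crowd round 0, while on the right Eif2ak3, at -1.40 and -1.11, and Calr, at 0.67 and 0.60, lie far out along the diagonal.

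The differences were then set beside the promoter elements. Of the 9 measured genes with any of the first 3 elements, 4 had a positive difference, and the median was -0.07. Of the 16 measured genes whose promoter held none of those elements, 3 were positive, and the median was -0.10. Members without a promoter window were left out of both counts. Hspa5, Hsp90b1, Hyou1 and Herpud1, whose windows are shown above, differed by -0.08, 0.00, -0.09 and -0.07.

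Other genes of the pathway were taken from 6 lists with 130 genes, of which 113 had a probe and 111 were tested. Limma called 0 of them in either direction, and 0 had an unadjusted p under 0.05. Their differences were positive for 50 and negative for 61, with a median of -0.01. Of the 111 genes, the groups parted with testosterone higher for 7 (6.31%) and with testosterone lower for 7 (6.31%). Among all probes tested the shares were 6.12% and 8.93%. Among 17 measured folding and disulfide genes 7 were positive, with Tmx1, a membrane thioredoxin, at 0.10 (-0.39 to 0.58) and Uggt1, the glucosyltransferase that senses misfolded glycoproteins, at -0.26 (-0.75 to 0.23). For both genes the groups did not overlap. Ganab and Mogs, glucosidases that trim new glycans, and Os9, a lectin of degradation, differed by 1.94, 1.46 and 1.32, and were named after their values were seen. Each of these 3 was read in columns 57 to 85 and read low on control replicate 1 alone, at 1.28, 1.22 and -2.81, where control replicate 2 read 5.20, 4.32 and -0.23.

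Of 15 measured genes that modify or fold collagen, 8 were positive and the median was 0.02. Plod2 and P4ha1, hydroxylases of lysine and proline in collagen, differed by 0.22 (-0.32 to 0.76) and 0.20 (-0.31 to 0.71), with both testosterone arrays above both controls. P3h1, a prolyl 3-hydroxylase of collagen, stood at 6.01 and 5.93 with testosterone, against 6.23 and 6.13 in control, a difference of -0.21 (-0.71 to 0.28) with the groups apart. Up to 2 genes a direction were named by rule, so the mixed signs of these enzymes are not a result. Of the 15 genes 0 passed the test.

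The translocon, signal peptidase and glycosylation list had 7 positive genes of 18, with Sec62 at 0.14, Spcs2 at 0.09, Stt3a at -0.29 (-0.81 to 0.23) and Stt3b at -0.12. Stt3a and Stt3b are the catalytic subunits of the enzyme that attaches glycans, and both testosterone arrays lay below both controls for each. The degradation list had 8 positive genes of 14, with Erlec1, a lectin of the ER lumen, at -0.16. In the PERK-ATF4 and amino acid list 14 of 24 were positive, with a median of 0.03, where the 4 member targets had a median of -0.14. Groups were apart for 0 genes of that list, against 15.1% of all probes. The list of stress sensors and ER to Golgi transport had 6 positive genes of 23. Bcl2l11, which encodes the death-promoting protein BIM, had the largest value of these. It stood at -4.20 and -4.32 with testosterone, against -4.67 and -5.38 in control (difference 0.76, -0.03 to 1.56). Its probe read near the floor, the lowest signals well above background being -5.56 and -5.68 on the control arrays. Atf6b, a relative of ATF6, differed by -0.24 and Bbc3, the death-promoting protein PUMA, by -0.17.

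**Figure D4:**
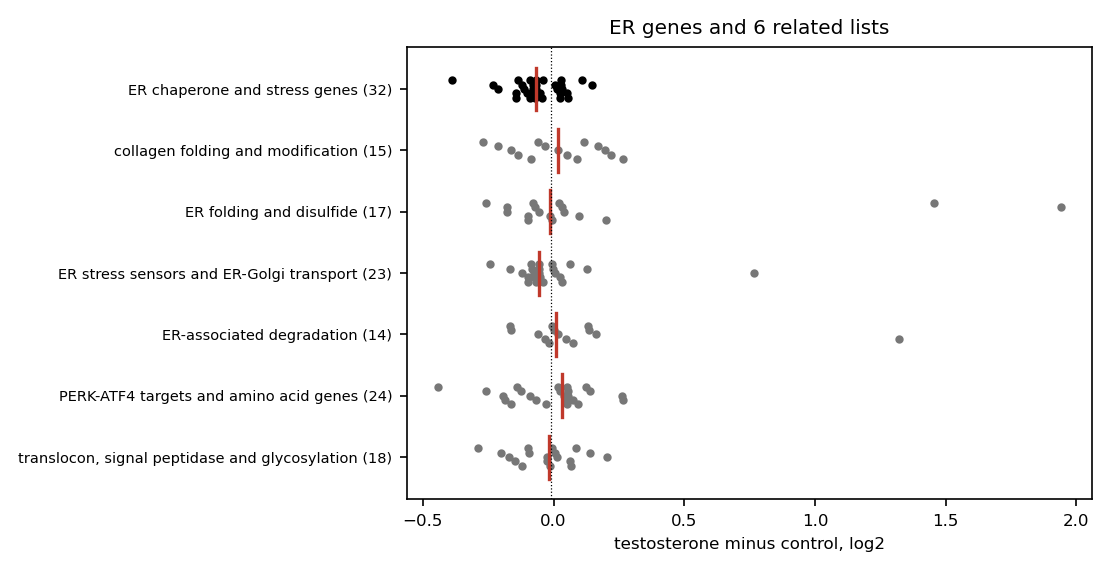
Differences, testosterone minus control (x axis, log2), of the 32 ER chaperone and stress genes and of the tested genes of 6 related lists, 1 point a gene, with list sizes in brackets. Red bars are list medians and the dotted line is the median of all probes tested; the 3 points beyond 1 are Ganab, Mogs and Os9.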

How the data were processed

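Total RNA was labelled with Cy3 and hybridised to Agilent 4x44k rat arrays, 1 per sample, and each group was read from the sample titles. Per the file headers, the deposited scanner files were made with Feature Extraction 11.5.1.1 (10.5 per the submitters' processing notes), and probe positions refer to rn4. The processed signal is an intensity on a linear scale, background-subtracted and detrended per the file headers. The authors' deposited series table holds log2 values, which matched the scanner signals after log2 once 1 constant an array, from 8.38 to 8.79, was taken off.

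Here log2 signals were scaled by subtracting the 75th percentile of each array, control spots left aside. Outlier spots were left out (105 to 158 an array) and saturated spots kept. A probe was tested when well above background on both arrays of a group. Probes were named through RefSeq symbols and older symbols of GRCr8 (18755 of 41012), which served for names only. No rn4 annotation was used, so exons and UTRs were not assigned. Testosterone and control were compared with limma 3.58.1 in R 4.3.3 (lmFit, eBayes, 2-sided, no covariate, Benjamini-Hochberg over all probes tested), checked on simulated data. An exact permutation test of 2 against 2 arrays cannot go below a 2-sided p of 0.333, so none is given. Slide and scan were common to the 4 arrays and gave no batch. The number of arrays limits the precision. Arrays with the same number deviated together, with r = 0.589 over 24489 probes and 0.686 with columns 57 to 85 left out. But there are only 2 such pairs and no label ties a number to a culture, so pairing was not assumed.

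The members and the lists were chosen with earlier results of these data known. Members were described in full where they stand for a branch of the response or had one of the 3 largest differences in a direction. Of the other lists, up to 2 genes a direction were named, those of largest difference whose groups did not overlap and whose probe was detected and unsaturated throughout.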

Additional observations from a re-analysis of the deposited data

How the results depend on the processing

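With all 4 arrays kept, 0 probes and 0 members were called under normexp with quantile normalization, the authors' table, other detection filters, 1 probe a gene, a floor on low values, columns 57 to 85 left out, or the replicate number as a block. Averaging a gene's probes likewise called 0 members. An unadjusted p under 0.05 was reached by 740 probes under the block, 36 with normexp, 711 with no detection filter and 87 with detection on all 4 arrays, against 208. The numbers are not known to pair the arrays, and the block moved no member call. Over these settings the median member difference ran from -0.08 to -0.04 and the positive members from 10 to 13 of 32, or 8 of 23 with the columns left out, where 9 members had no other probe. Since 0 differences were called, changes of sign are given as counts: 6 of 32 with normexp (Creld2, Dnajb11, Manf, Nucb2, Serpinh1 and Trib3), 1 with the authors' table, 2 with the mean over probes and 0 under the other settings with all arrays. With normexp 5 members moved by over 1 SD, to 0.31 for Ern1, -0.13 for Hyou1, -0.04 for Creld2, and 0.02 for both Nucb2 and Serpinh1. With the columns left out Manf moved to -0.21, the value of its other probe.

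Leaving out 1 array called 0 to 67 probes and 0 members, with the remaining array of that group taken to scatter as the other group did. Without control replicate 2 the calls were all higher, and control replicate 1 stood alone in its group. The part of its low spots in those calls was not tested. The members whose groups did not overlap then numbered 16 to 22 (50% to 68.8%), where 45.1% to 69.3% of all probes parted. Signs changed for 5 to 15 of 32 members, most of them without testosterone replicate 2. With 2 arrays a group, the differences of all probes tested ran from -3.15 to 6.20 and 0 were called. The intervals given above are not adjusted for the number of probes and do not mark a limit of detection.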
